A study of Mus musculus with 6 samples.

Results

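The genes described here form the caspase and Bcl2 families of mouse programmed cell death, with the receptors, adaptors, inhibitors and nucleases that act beside them, as measured in the olfactory epithelium after closure of a nostril. They were chosen by name from a list of 39 symbols; the rule itself uses no measured value, but the list was drawn up with earlier results of these data known. Of these, 36 had a probe set annotated with their symbol alone, among 14860 genes so named on the array, and each had only 1 such probe set. Ripk1, Tradd and Birc2 were not analysed here. The olfactory epithelium is the nasal sheet that holds the odorant-sensing neurons, and its total RNA was measured on Affymetrix Mouse Exon 1.0 ST arrays. Naris occlusion closes a nostril, which lowers odour stimulation of the epithelium behind it. All animals were C57Bl/6 mice, 3 in number, with a nostril closed for 5 days and no other genotype or agent named in the labels; age and sex are not given in the sources used here. The occluded group holds 3 arrays from the closed side, and the contralateral group holds 3 arrays from the open side. The open side is a limited reference: per the labels its odour stimulation was raised, and no unoperated animals were among these samples. Which arrays share a mouse is not stated, and p-values therefore speak only of array-to-array spread, which may be partly technical.

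Values are RMA log2 intensities, so a difference of 1 is a doubling, and differences are occluded minus contralateral. Occluded replicate 1 stood apart, with correlations of 0.977 to 0.983 with the other arrays over all probe sets, against 0.986 to 0.989 among those others. Olfactory neurons were present by their markers: all 15 measured markers of mature olfactory neurons lay above a reference median of 5.82. That median is over 34 reference genes not expected in nasal tissue. Their means ran from 4.16 to 8.27, so a mean above the median does not by itself show expression. Omp, the olfactory marker protein, averaged 13.67 on the occluded side and 13.56 on the contralateral side. Casp1, Casp4, Casp14 and Fas had means under that median of 5.82, so their differences are not well measured. RNA of connective tissue and bone was also present, so the values are those of mixed tissue. The 16 measured markers of these tissues had a median level of 11.92, against 11.54 for the mature neuron markers. The collagen gene Col1a1 averaged 13.60 over the 6 arrays. In bulk tissue, fewer cells of a type and less RNA per cell cannot be told apart.

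Apoptosis runs along an intrinsic and an extrinsic route. In the intrinsic route BH3-only proteins relieve Bcl2-type proteins of their hold on Bak1 and its relatives, mitochondria become leaky, and Apaf1 assembles the apoptosome that activates Casp9. In the extrinsic route death receptors such as Fas recruit Fadd and Casp8, and Cflar competes with Casp8 there. Olfactory sensory neurons are replaced throughout life, and programmed death followed by renewal from basal cells is a known feature of this tissue.

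None of the 36 genes differed between the sides at an adjusted p under 0.05 (limma, Benjamini-Hochberg over all 23332 probe sets), and the smallest adjusted p was 0.823. The same test called 0% of all probe sets. At an unadjusted p under 0.05 the count was also 0 of 36, against 5.28% of all probe sets, made up of 3.81% with the occluded side higher and 1.47% with it lower. The log2 differences ran from -0.14 for Casp12 to 0.36 for Ripk3, with standard errors of 0.083 to 0.21. Over the 32 genes with means above the reference median, the 95% intervals of all 32 lay within a 2-fold change in either direction, and those of 24 lay within a 1.41-fold change. No bound is given for Casp1, Casp4, Casp14 and Fas. Bounds are also uncertain for members at levels that some reference genes reach, such as Casp12 at 6.18 and Ripk3 at 7.11. On the log2 scale 30 of 36 lay above 0, or 83.3%, against 64.8% of all probe sets, and the median was 0.085 against 0.055 over all probe sets. Centring every array on its own median shifted the difference of every gene by -0.08, after which 18 of 36 lay above 0, against 43.5% of all probe sets. The 12 genes whose sign turned with that shift were Casp2, Casp9, Casp4, Casp14, Bcl2, Bid, Bik, Bad, Pmaip1, Aifm1, Endog and Dffa, and their differences are given as values without a direction.

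**Figure D1:**
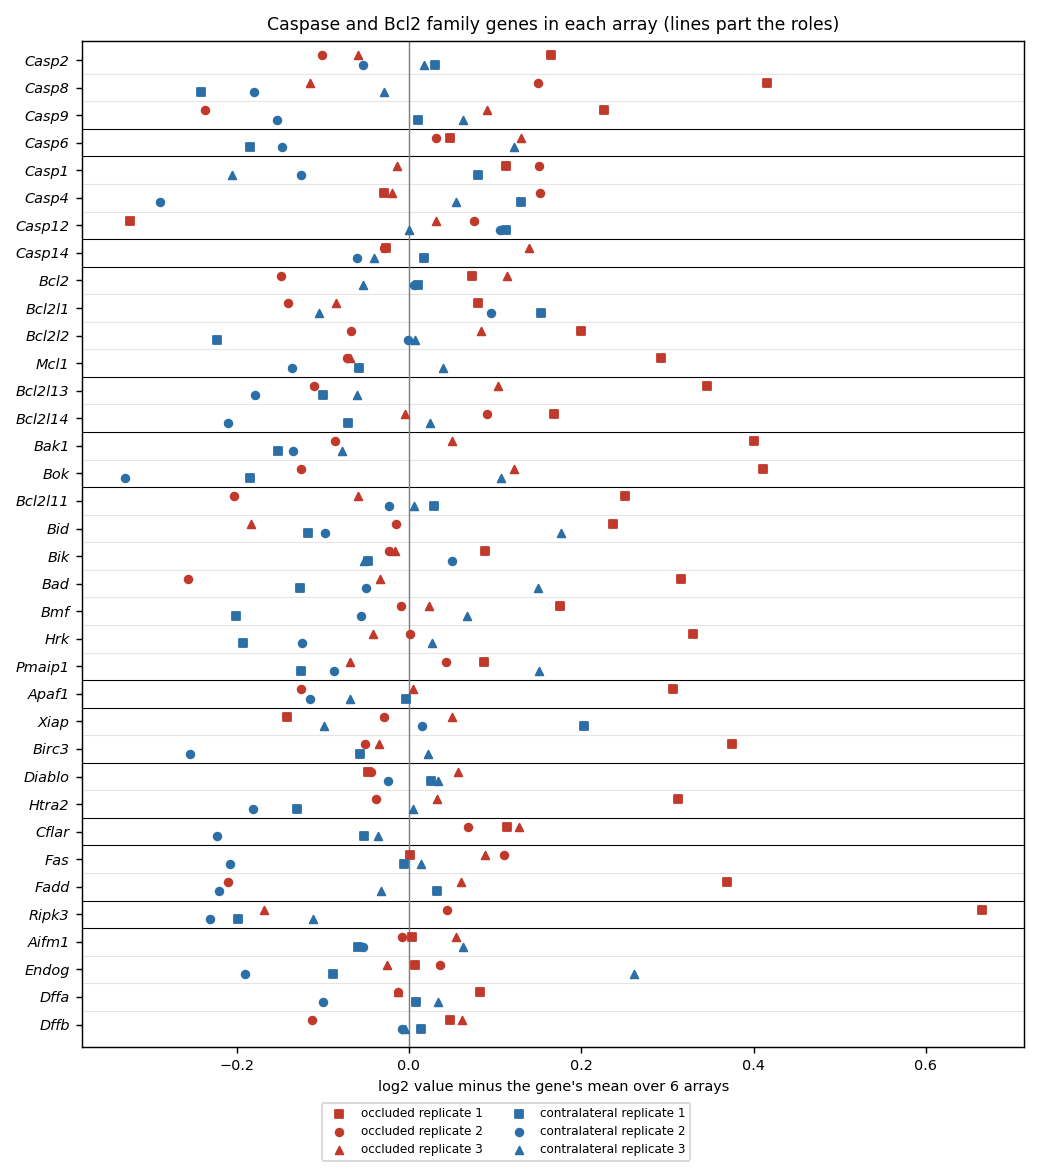
Each point is the log2 value of a gene in an array minus that gene's mean over all 6 arrays, with occluded arrays in red above contralateral arrays in blue, and black lines between the roles. Occluded replicate 1, the red square, is the highest of the 6 arrays in 21 of the 36 genes, or 58.3%, against 46.0% of all probe sets. Cflar is the only gene whose red and blue points do not overlap.

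Cflar was the only member whose sides did not overlap. It encodes c-FLIP, the caspase-like protein without catalytic activity that holds back Casp8 at death receptors. Its log2 values were 9.59, 9.54 and 9.60 on the occluded side, against 9.42, 9.25 and 9.44 on the contralateral side. Every occluded array lay above every contralateral array, and the occluded arrays were tightly grouped. The means were 9.57 ± 0.03 on the occluded side and 9.37 ± 0.10 on the contralateral side (SD, n = 3 each). The log2 difference was 0.21 (SE 0.09), a ratio of 1.15 with a 95% interval of 0.99 to 1.34, and the limma p was 0.0581 before adjustment and 0.823 after it. That difference was 0.13 after median centring and 0.12 after quantile normalization or cyclic loess. Leaving out 1 array gave 0.15 to 0.24. Non-overlap with the occluded side higher was met by 2.78% of the members and by 7.49% of all probe sets, so its share among the members was below the background.

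Cflar and Casp8 are direct neighbours among the protein-coding genes of mouse chromosome 1 in RefSeq, and they had the lowest unadjusted p-values of the 36 genes. The 250 bases before their start sites are shown because the inhibitor and its target lie side by side yet have separate promoters (RefSeq, GRCm38.p6, plus strand, chr1:58711241-58711490 for Cflar and chr1:58802252-58802501 for Casp8). Capitals mark the motif TATAAA, read on both strands, where overlapping matches merge.
Cflar: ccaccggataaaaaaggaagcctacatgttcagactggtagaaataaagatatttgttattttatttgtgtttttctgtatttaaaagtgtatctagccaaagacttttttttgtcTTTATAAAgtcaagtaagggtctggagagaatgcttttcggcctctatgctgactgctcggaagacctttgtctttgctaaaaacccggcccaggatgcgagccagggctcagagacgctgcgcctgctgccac
Casp8: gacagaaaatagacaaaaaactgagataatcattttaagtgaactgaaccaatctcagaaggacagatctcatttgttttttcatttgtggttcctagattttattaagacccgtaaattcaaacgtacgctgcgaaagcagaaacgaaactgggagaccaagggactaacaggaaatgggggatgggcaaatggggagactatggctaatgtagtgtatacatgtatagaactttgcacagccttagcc
TATAAA was present in 1 of the 33 members with a promoter window, Cflar, and in 13.0% of 27025 genes. The GC box GGGCGG, read on both strands, was present in 21 of 33 members and in 32.9% of genes, and neither of these promoters holds it. The cyclic AMP response element TGACGTCA was in 0 of 33 members and 1.62% of genes, its shorter core TGACG, which the full element contains, in 6 of 33 and 17.9%, and the kappaB motif in 2 of 33 and 3.75%. GC content was 42.8% for Cflar and 39.6% for Casp8, against a median of 58.4% over the 33 members and 52.0% over all genes. These matches describe the letters of these windows only.

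Among the initiator caspases, which start the cascade, Casp8 had the largest difference. Its log2 values were 9.22, 8.95 and 8.69 on the occluded side, against 8.56, 8.62 and 8.77 on the contralateral side. Of the occluded arrays, replicate 3 lay below the highest contralateral array, so the sides overlapped. The log2 difference was 0.30 (SE 0.15), a ratio of 1.23 with an interval of 0.96 to 1.57, and it was 0.17 without occluded replicate 1. Casp9, which the apoptosome activates, had a log2 difference of 0.05 (SE 0.14) and Casp2, which the PIDDosome activates, one of 0.0035 (SE 0.10). Casp6, an executioner caspase also tied to axon degeneration, had log2 values of 11.02, 11.00 and 11.10 on the occluded side, against 10.79, 10.82 and 11.09 on the contralateral side. Contralateral replicate 3 lay among the occluded arrays, and the log2 difference was 0.14 (SE 0.11).

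The inflammatory caspases drive pyroptosis, a lytic death with release of interleukins, and sit together on chromosome 9 as the consecutive protein-coding genes Casp1, Casp4 and Casp12. Casp1, which matures interleukins, had log2 values of 5.02, 5.06 and 4.90 on the occluded side, against 4.99, 4.79 and 4.71 on the contralateral side, a difference of 0.17 (SE 0.11) at a level under the reference median. Casp4, the sensor of bacterial lipopolysaccharide in the cytosol, had a log2 difference of 0.07 (SE 0.13). Casp12, linked to the endoplasmic reticulum in mice, had the lowest difference of all members, -0.14 (SE 0.13), and -0.02 without occluded replicate 1. Casp14, which acts in the cornifying epidermis rather than in apoptosis, had log2 values of 5.47, 5.47 and 5.64 on the occluded side, against 5.52, 5.44 and 5.46 on the contralateral side. Its sides overlapped, and markers of keratinised epithelium had a median log2 difference of -0.02 over 9 genes, or -0.10 after median centring.

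**Figure D2:**
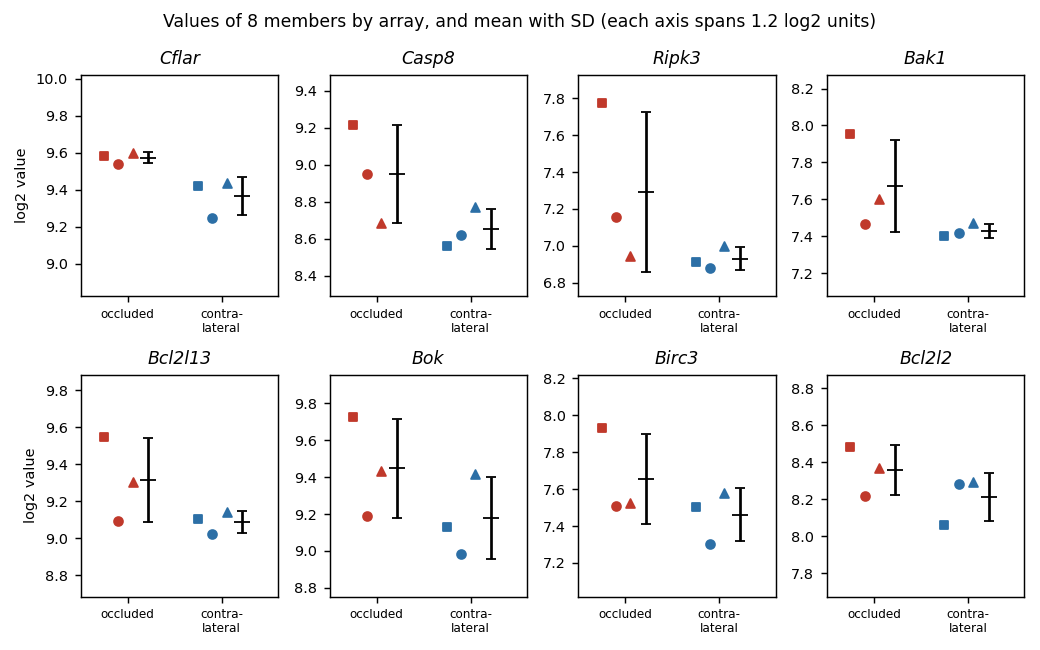
Log2 values of 8 members, with the occluded arrays in red left of the contralateral arrays in blue (square, circle and triangle for replicates 1, 2 and 3), and the mean with SD as a black bar (n = 3 each). Occluded replicate 1 is the highest array in every panel except Cflar, where the sides are apart without it.

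The Bcl2-type survival proteins keep mitochondria intact by binding their pro-death relatives. Bcl2l2, known as Bcl-w and prominent in neurons, had the largest absolute difference of the 4, with log2 values of 8.48, 8.22 and 8.37 on the occluded side, against 8.06, 8.28 and 8.29 on the contralateral side. The sides overlapped, and the log2 difference of 0.15 (SE 0.11) was 0.08 without occluded replicate 1 and 0.07 without contralateral replicate 1. Mcl1, a short-lived survival protein, had a difference of 0.10 (SE 0.13), or -0.02 without occluded replicate 1, and Bcl2 itself one of 0.03 (SE 0.10). Bcl2l1, the gene of Bcl-xL, was at -0.10 (SE 0.11). Its means were 8.70 ± 0.12 on the occluded side and 8.80 ± 0.14 on the contralateral side (SD, n = 3 each).

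The IAP proteins block death further downstream. Birc3, an IAP that also acts as a ubiquitin ligase in immune signalling, had log2 values of 7.93, 7.51 and 7.52 on the occluded side, against 7.50, 7.30 and 7.58 on the contralateral side. Occluded replicate 1 alone lay above all contralateral arrays, and the log2 difference of 0.19 (SE 0.15) was 0.05 without it. Xiap, the direct inhibitor of executioner caspases, was at -0.08 (SE 0.11). Their antagonists leave mitochondria during apoptosis. Of these, Htra2, a serine protease, had log2 values of 9.07, 8.72 and 8.79 on the occluded side, against 8.63, 8.58 and 8.76 on the contralateral side. Its difference was 0.20 (SE 0.12), or 0.10 without occluded replicate 1, while Diablo, also called Smac, was at -0.02 (SE 0.08).

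Bak1 and Bok, proteins that open the outer mitochondrial membrane, both had positive differences. Bak1 had log2 values of 7.95, 7.46 and 7.60 on the occluded side, against 7.40, 7.42 and 7.47 on the contralateral side. Only occluded replicate 2 fell within the contralateral range, and the log2 difference of 0.24 (SE 0.14) was 0.10 without occluded replicate 1. Bok, whose values were 9.72, 9.19 and 9.43 on the occluded side, against 9.13, 8.98 and 9.42 on the contralateral side, overlapped more widely. Its log2 difference was 0.27 (SE 0.17), or 0.13 without occluded replicate 1. Bcl2l13, a mitochondrial relative of Bcl2 that also acts in mitophagy, had log2 values of 9.55, 9.09 and 9.30 on the occluded side, against 9.10, 9.02 and 9.14 on the contralateral side. It followed the same array pattern, with a difference of 0.23 (SE 0.13), or 0.11 without occluded replicate 1. Bcl2l14, known as Bcl-G, was at 0.17 (SE 0.10), and at 0.13 without that array.

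The 7 BH3-only genes, the sensors that report damage or loss of trophic support to the Bcl2 proteins, had a median log2 difference of 0.03. Hrk, a BH3-only protein best known from neurons deprived of growth factor, had the largest, with log2 values of 10.08, 9.75 and 9.71 on the occluded side, against 9.56, 9.63 and 9.78 on the contralateral side. Its difference was 0.19 (SE 0.13), or 0.08 without occluded replicate 1, and the sides overlapped. Bmf, which is tied to the cytoskeleton, was at 0.13 (SE 0.11), at 0.07 without occluded replicate 1 and at 0.06 without contralateral replicate 1. The other members were nearer to 0: Pmaip1, the p53 target Noxa, at 0.04 (SE 0.11), Bik at 0.03 (SE 0.09), Bid, the link from Casp8 to mitochondria and the direct chromosome 6 neighbour of Bcl2l13, at 0.03 (SE 0.14), Bad at 0.02 (SE 0.16) and Bcl2l11, known as Bim, at -0.0078 (SE 0.13).

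Apaf1, the scaffold of the apoptosome, had log2 values of 9.03, 8.59 and 8.72 on the occluded side, against 8.72, 8.60 and 8.65 on the contralateral side. Its difference of 0.12 (SE 0.13) was 0.0020 without occluded replicate 1. At the death receptor, Fadd, the adaptor that binds Casp8, had log2 values of 7.78, 7.20 and 7.47 on the occluded side, against 7.44, 7.19 and 7.38 on the contralateral side, a difference of 0.15 (SE 0.16), or -0.0009 without occluded replicate 1. Fas, the receptor, was at 0.13 (SE 0.10) and at 0.17 without that array, at a level under the reference median. Ripk3, the kinase of necroptosis, had log2 values of 7.78, 7.15 and 6.94 on the occluded side, against 6.91, 6.88 and 7.00 on the contralateral side. Its difference of 0.36 (SE 0.21) was the largest of the 36 and had the widest interval, -0.14 to 0.86, and it was 0.12 without occluded replicate 1.

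The 4 genes whose proteins act on DNA in dying cells all had differences near 0. Dffa, the chaperone and inhibitor of the apoptotic nuclease, had log2 values of 8.45, 8.35 and 8.35 on the occluded side, against 8.37, 8.26 and 8.40 on the contralateral side, a difference of 0.04 (SE 0.09). Dffb, the nuclease itself, was at -0.0015 (SE 0.09). Aifm1, a mitochondrial flavoprotein that moves to the nucleus, was at 0.03 (SE 0.08) and Endog, a mitochondrial nuclease, at 0.01 (SE 0.13). The 95% intervals of these 4 genes spanned -0.30 to 0.32.

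**Figure D3:**
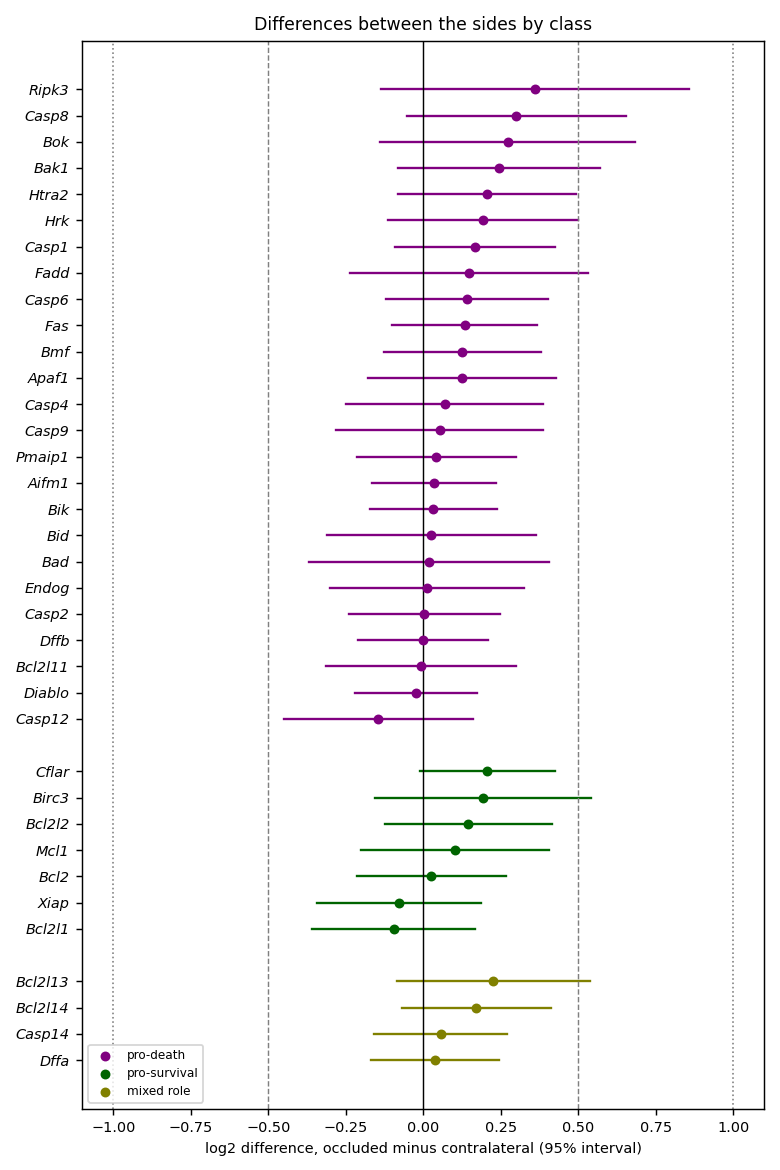
Log2 difference of each gene, occluded minus contralateral, as a point with its 95% interval from limma, grouped into pro-death, pro-survival and mixed-role genes. Dashed and dotted lines mark 1.41-fold and 2-fold changes, and every interval crosses 0 and stays inside the 2-fold lines. Casp1, Casp4, Casp14 and Fas lie under the reference median and their intervals bound nothing. Intervals of members at levels that some reference genes reach are uncertain as bounds.

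Pro-death genes were set against pro-survival genes over 25 and 7 members, with Casp14, Bcl2l13, Bcl2l14 and Dffa left aside as genes of mixed role. The median log2 difference was 0.07 for pro-death genes and 0.10 for pro-survival genes. The pro-death median is the value of Casp4, which with Casp1 and Fas lies under the reference median, where no pro-survival gene lies. Over the genes above the reference median the medians were 0.05 for pro-death and 0.10 for pro-survival genes. Of the pro-death genes 21 lay above 0 and 4 below, and of the pro-survival genes 5 lay above 0 and 2 below. After centring every array on its median the split was 12 above and 13 below for pro-death genes, and 4 above and 3 below for pro-survival genes. The gap between the medians, pro-death minus pro-survival, was -0.03 over all genes of the classes and -0.05 over those above the reference median. Within each array, with every gene set to its own mean over the 6 arrays, the gap was 0.06, 0.05 and -0.05 on the occluded side, against -0.0073, -0.12 and 0.05 on the contralateral side. The sides overlapped in that measure, and its sign differed between arrays of the same side. Its mean was 0.02 on the occluded side and -0.03 on the contralateral side, a difference of 0.05 whose sign is opposite to that of the gap between the medians, so no direction is given for the gap. No test was made of it, since the genes were chosen by name with earlier results known.

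**Figure D4:**
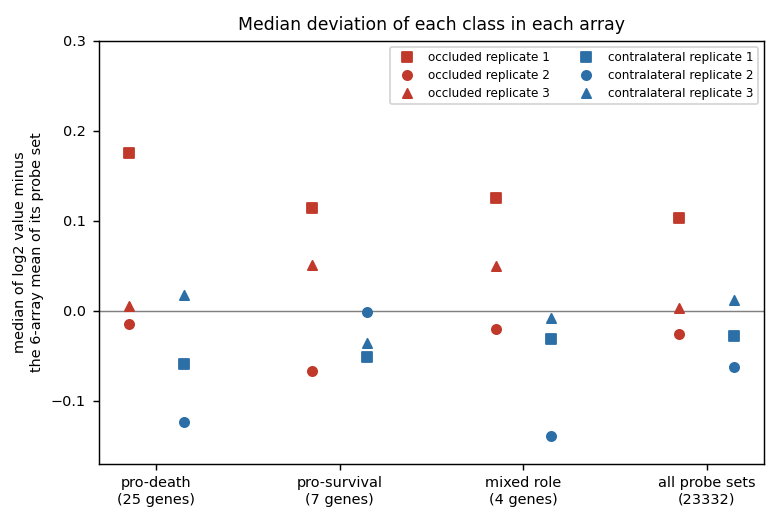
Each point is the median, over the genes of a class in an array, of the log2 value minus the 6-array mean of its probe set, with occluded arrays in red left of contralateral arrays in blue. Occluded replicate 1 is the highest array in every class and over all probe sets (0.18 for pro-death, 0.11 for pro-survival, 0.10 over all probe sets), and the other arrays of the 2 sides overlap.

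Much of the upward lean lay in occluded replicate 1, over all probe sets as well as in the family. That array was the highest of the 3 occluded arrays in 63.9% of the members and in 57.0% of all probe sets. Without it the median difference was 0.03 over the 36 genes, 0.01 over pro-death genes and -0.0049 over pro-survival genes. Over all probe sets the median was 0.055 with that array and 0.016 without it. Of the 36 genes 22 then lay above 0, where all probe sets had 55.3%. Without that array 8 genes turned below 0, namely Casp2, Casp9, Bcl2, Mcl1, Bid, Bik, Bad and Fadd. The 6 differences largest in size were then 0.20 for Cflar, 0.17 for Casp8, -0.16 for Bcl2l1 and 0.15 for Casp6, with 0.17 for Fas and 0.15 for Casp1, both under the reference median and not well measured. The spread between the occluded arrays exceeded that between the contralateral arrays in 23 of 36 genes, or 63.9%, and in 63.8% of all probe sets. Contralateral replicate 2 was the lowest array, with a median deviation of -0.12 over the members and -0.06 over all probe sets. Without contralateral replicate 2, 23 of the 36 genes lay above 0 and 7 signs turned. The median difference was then 0.06 over the members and 0.038 over all probe sets.

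Of 55 further genes of the death pathway, 44 were measured and 0 passed the adjusted test. At an unadjusted p under 0.05 there was 1, with the occluded side higher, against 3.81% of all probe sets in that direction. This was Vdac3, a channel of the outer mitochondrial membrane, with log2 values of 8.96, 8.64 and 8.71 on the occluded side, against 8.51, 8.55 and 8.35 on the contralateral side. Its sides did not overlap, the log2 difference was 0.30 (SE 0.12), and the limma p was 0.0383 before adjustment and 0.823 after it. Il18, an interleukin that Casp1 matures, was at 0.22 (SE 0.09), and Tnfsf10, the death ligand TRAIL, at 0.31 (SE 0.13). The median over the 44 genes was 0.06, with 33 above 0 and 11 below, and 0.0058 without occluded replicate 1. After median centring the median was -0.02, with 19 above 0 and 25 below. The sides did not overlap in 4 genes with the occluded side higher, against 7.49% of all probe sets, and in 1 with it lower, against 3.24%. Among 17 p53 target genes, a list that does not include Pmaip1, Fas or Apaf1, the median was 0.09, or 0.03 without occluded replicate 1 and 0.02 after median centring, and 0 passed the adjusted test. The sides did not overlap in 2 of these genes, Rps27l and Sesn1 (both named after their values were seen), with the occluded side higher, against 7.49% of all probe sets. At an unadjusted p under 0.05 there was 1, against 3.81% of all probe sets in that direction: Rps27l, a ribosomal protein-like p53 target, with log2 values of 9.36, 9.21 and 8.98 on the occluded side, against 8.21, 8.47 and 8.59 on the contralateral side. The sides differed by 0.76 in log2 (SE 0.14), with a limma p of 0.00125 before adjustment and 0.805 after it.

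Markers of some other cells that carry this machinery moved with occluded replicate 1, and those of others did not. Lymphocyte markers had a median deviation of 0.03 in that array, against 0.06 in contralateral replicate 3. Erythroid, ensheathing glia and respiratory ciliated cell markers also had their highest median deviation in another array. The median deviation of 15 macrophage and monocyte markers from their 6-array means was 0.52, -0.04 and -0.02 on the occluded side, against -0.04, -0.35 and -0.06 on the contralateral side. Of these markers 14 had a log2 difference above 0 and 1 below, none had a mean under the reference median, and their summed linear level was 5878 to 9211 intensity units on the occluded side, against 4849 to 5795 on the contralateral side. Tyrobp, an adaptor of myeloid receptors, was at 0.62 (SE 0.20) and Cd14, a co-receptor for lipopolysaccharide, at 0.38 (SE 0.13). In the 13 neutrophil markers the median deviation was 0.07, 0.16 and 0.03 on the occluded side, against -0.10, -0.23 and -0.06 on the contralateral side, so it did not peak in occluded replicate 1. Of the neutrophil markers 9 lay above 0 and 4 below, 2 had a mean under the reference median, and the summed linear level was 8580 to 9836 on the occluded side, against 6799 to 7880 on the contralateral side. Unlike the median deviation, this sum was highest in occluded replicate 1. By their mean levels, Mmp9 (11.87), Lcn2 (11.00) and Ltf (10.11) weigh most in it, so it says little of the other markers. Endothelial markers reached 0.46 and connective tissue and bone markers 0.45 in occluded replicate 1, and they were lowest in contralateral replicate 2, at -0.27 and -0.29. Summed linear levels were 3173 to 4624 on the occluded side and 2809 to 3220 on the contralateral side for 12 endothelial genes, and 69180 to 88250 and 61630 to 70400 for the occluded and contralateral sides of 16 connective tissue and bone genes; all of these genes lay above the reference median and had differences above 0, except that after median centring 2 of the connective tissue and bone genes lay below 0. Of the 15 mature olfactory neuron markers 12 lay above 0 and 3 below, or 10 and 5 after median centring. Their summed linear level was 51130 to 55840 on the occluded side, against 47410 to 50280 on the contralateral side. The part of any of these cell types in the values of Casp8, Ripk3, Bak1, Bok and Birc3 was not tested.

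**Figure D5:**
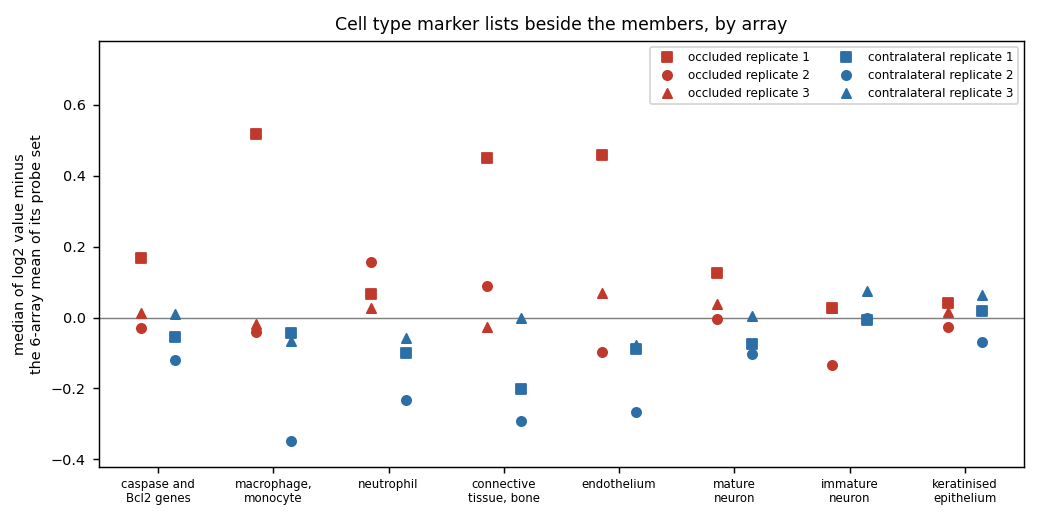
Each point is the median, over the genes of a list in an array, of the log2 value minus the 6-array mean of its probe set, with occluded arrays in red left of contralateral arrays in blue. Occluded replicate 1 is highest for the caspase and Bcl2 genes (0.17), the macrophage and monocyte markers (0.52), connective tissue and bone (0.45), endothelium (0.46) and mature neurons (0.12).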

How the data were processed

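Per the labels, the deposited log2 values come from RMA, which the authors ran in Expression Console as a core-gene analysis; no version is named, and the base of the logarithm was inferred from the range of the values. RMA brings array distributions nearer to each other, which can shrink changes shared by many genes. The deposited values were still not alike: array medians were 8.00 to 8.12 on the occluded side and 7.94 to 8.00 on the contralateral side. Every occluded median lay above every contralateral median. The median difference over all probe sets, 0.055 as deposited, was -0.0061 after quantile normalization. Scanner files were not used here, and the number of arrays limits the precision. Gene names come from the platform annotation (14996 of 23332 carried 1 symbol, 1019 several, 7317 none). A further probe set, shared by Cflar and another gene, was not used.

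All probe sets entered a two-sided limma fit (limma 3.58.1, R 4.3.3; lmFit and eBayes, no block) with Benjamini-Hochberg adjustment and a threshold of 0.05. An exact permutation test with 3 arrays a side has a smallest p of 0.1 and was not used. The fit was run on simulated data with independent normal values and the same spread on both sides. That setting holds no outlying array and no shift between arrays, so it does not cover those traits of the real data. The members, classes and lists were chosen with earlier results of these data known. Per-array values are printed for members with unadjusted p under 0.05 or non-overlapping sides, the 3 with the smallest p in the pro-death and pro-survival classes, and the largest difference of each role. Of the further pathway genes, those with p under 0.05 and the 3 with the smallest p are named, and of the macrophage list the 2 with the smallest p. Rps27l and Sesn1 of the p53 list, and Mmp9, Lcn2 and Ltf of the neutrophil list, fall outside this rule. Alternatives were the fit without each array in turn, a replicate block, 3 other scalings, filters, variance models, array weights, thresholds and class definitions. Promoters are from RefSeq, GRCm38.p6, matched by symbol for 33 of 36 members, first window listed.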

Additional observations from a re-analysis of the deposited data

How the results depend on the processing

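No member passed the adjusted test under any alternative run (thresholds of 0.01 and 0.1 included), and the smallest adjusted p over them was 0.119, for Cflar with array quality weights, whose estimation stopped before convergence (the weight of occluded replicate 3, 7.02, was the highest). The count at an unadjusted p under 0.05, 0 as reported, was 8 of 36 with those weights, or 22.2%, against 23.2% of all probe sets, of which 62 then passed the adjusted test; it was 1 (Cflar) with a variance trend, with no moderation or when only probe sets of 1 symbol were tested, and 0 to 2 when 1 array was left out (2 without occluded replicate 2 or 3). The replicate numbers share no stated animal. Deviations of same-numbered arrays correlated at 0.00949, 0.166 and -0.041. Those of differently numbered arrays ran from -0.172 to 0.15, so these values do not settle which arrays share a mouse. With the replicate block, fixed or random, 0 members passed, 0 had p under 0.05 and the median stayed at 0.085. The block changed no call, but pairings other than by equal number were not run. The pro-survival median was 0.033 after cyclic loess, 0.023 with median centring and -0.0049 to 0.16 when 1 array was left out. With median centring and without occluded replicate 1 together, a setting chosen after seeing the data, the medians were -0.019 over all members, -0.034 for pro-death and -0.049 for pro-survival genes. The gap between the classes ran from -0.05 to 0.02. No member has a second probe set of its own, so averaging probe sets was not run. The sign turned in 18 members under some alternative, all 18 with a difference smaller than its standard error; the cause was not tested. After median centring these were Casp2 -0.076, Casp9 -0.026, Casp4 -0.010, Casp14 -0.023, Bcl2 -0.054, Bid -0.053, Bik -0.046, Bad -0.061, Pmaip1 -0.038, Aifm1 -0.046, Endog -0.068 and Dffa -0.041. After quantile normalization they were Casp2 -0.068, Casp9 -0.028, Bcl2 -0.054, Bid -0.044, Bik -0.043, Bad -0.063, Pmaip1 -0.012, Aifm1 -0.049, Endog -0.020 and Dffa -0.036, and after cyclic loess Casp2 -0.069, Casp9 -0.027, Bcl2 -0.057, Bid -0.039, Bik -0.040, Bad -0.060, Pmaip1 -0.0081, Aifm1 -0.048, Endog -0.022 and Dffa -0.049. With array weights they were Casp2 -0.066, Casp4 -0.035, Bid -0.092, Diablo 0.031 and Dffb 0.042. Leaving out 1 array gave Casp2 -0.078 to 0.055, Casp9 -0.047 to 0.18, Casp4 -0.058 to 0.15, Bcl2 -0.025 to 0.11, Mcl1 -0.019 to 0.16, Bcl2l11 -0.13 to 0.091, Bid -0.086 to 0.12, Bik -0.0037 to 0.066, Bad -0.14 to 0.15, Pmaip1 -0.011 to 0.13, Xiap -0.15 to 0.0016, Fadd -0.00090 to 0.29, Endog -0.081 to 0.14, Dffa -0.0016 to 0.065 and Dffb -0.033 to 0.054.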

Other observations

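The 13 measured markers of immature olfactory neurons had a median log2 difference of -0.05, with 1 above 0 and 12 below, and the sides did not overlap in 2 of them, both with the occluded side lower, against 3.24% of all probe sets. Among the mature neuron markers 2 also lay lower without overlap, and 4 lay higher. The immature neuron median was -0.11 without occluded replicate 1, -0.13 after median centring and -0.15 with both. In these settings the caspase and Bcl2 genes had 0.03, 0.0065 and -0.02, and all probe sets 0.016, -0.024 and -0.028. The 8 measured markers of neuronal progenitors had a median of -0.0044, with 3 above 0 and 5 below. Their median was -0.08 without occluded replicate 1, with 0 above 0, -0.08 after median centring, with 1 above 0 and 7 below, and -0.13 with both. The median of the 7 horizontal basal cell markers, the reserve stem cells of the epithelium, was 0.16, and all of these markers were highest in occluded replicate 1. Their median was 0.09 without that array, with 5 above 0, and 0.08 after median centring, with 4 above 0 and 3 below. No gene of these lists passed the adjusted test (limma, smallest adjusted p 0.823 in each list), and at an unadjusted p under 0.05 each list had 0. How these lists differ from the death genes was not tested.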
